A study of Mus musculus with 13 samples.

Results

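Classical monocytes of the lung were read here as 1068 barcodes of a droplet single-cell RNA sequencing matrix from mouse lung tissue. A barcode, which stands for 1 captured cell, was taken when at least 5 unique molecular identifiers (UMIs, each standing for 1 captured RNA molecule) were summed over Ly6c2, F13a1, Vcan and Ccr2, with at least 2 of F13a1, Vcan and Ccr2 detected. It also had fewer than 10 UMIs over C1qa, C1qb and C1qc, 0 UMIs of Cd209a, Cd3e and Cd79a, and at most 10% of its UMIs from mitochondrial genes. The members were 1068 of the 20856 barcodes of libraries 1, 2, 3 and 7 that met the mitochondrial limit (5.12%, exact 95% binomial interval 4.83 to 5.43). Those 4 libraries held 24344 barcodes and the whole matrix of 7 libraries held 37344. The members were chosen by these measured counts, which are therefore a description, and the other genes were measured in the same cells.

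The series labels name 13 samples of mouse lung. Per its methods the mice were C57BL/6, and their age was not given in the sources used here. The 4 single-cell groups, with 1 sample each, were Control, Asthma (sensitised and challenged with ovalbumin), PPE-emphysema (porcine pancreatic elastase, PPE, instilled repeatedly into the airways at weekly intervals) and PPE-recovery (a single PPE instillation followed by a longer rest). The groups Con, Acute injury and emphysema, with 3 samples each, were not analysed here. The 7 libraries of the matrix are known only by a number that matches no sample label, so no library could be placed in a group. The matrix therefore counted as 1 sample without replicates, and no value below compares asthma, emphysema or recovery with control. Levels are UMIs per 1000000 UMIs of the summed cells (CPM), and their intervals, exact 95% Poisson for levels and exact 95% binomial for shares, cover counting error only.

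Classical monocytes are made in the bone marrow and leave it through the chemokine receptor Ccr2. They circulate for a short time, enter inflamed tissue, and there can take on macrophage or dendritic cell features. Those that stay in the blood can convert into nonclassical monocytes, which patrol the vessel wall and carry little Ly6C, the surface protein encoded by Ly6c2. In the lung they lie beside resident interstitial macrophages, which make the complement component C1q, and beside conventional dendritic cells.

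The members numbered 331, 354, 321 and 62 in libraries 1, 2, 3 and 7. They made up 6.90% (6.19 to 7.65), 4.64% (4.18 to 5.14), 6.26% (5.61 to 6.96) and 1.88% (1.44 to 2.40) of the barcodes that met the mitochondrial limit, so library 7 held the smallest share and its interval overlapped none of the others. The members carried 11809099 UMIs in all, with 3348713, 4270092, 3345559 and 844735 per library, against library totals of 50552002, 79439569, 47364075 and 34606626 UMIs. The median member had 9802 UMIs (1547 to 65740) and 2837.5 detected genes. Median UMIs per member were 9431, 9971.5, 9747 and 12338 in libraries 1, 2, 3 and 7, and the median mitochondrial share was 4.43%, 3.53%, 3.55% and 3.38%. Near the threshold, 41 members had exactly 5 marker UMIs and 31 had 6, while 48 barcodes with 4 and 56 with 3 met the rest of the rule and stayed outside. The C1q limit left out 102 barcodes, of which 3 had exactly 10 C1q UMIs, and 3 members had 9. Of the members, 969 had no C1q UMI.

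Several libraries and members stood apart and are named before any result. Libraries 4, 5 and 6 held 928, 150 and 100 barcodes that met the same rule, and those cells carried hemoglobin RNA (below), so they were kept separate. T and B cells, which do not make the club cell secretoglobin Scgb1a1, held 386, 615, 7012 and 96.4 CPM of it in libraries 1, 2, 3 and 7 but 0, 0.158 and 0 CPM in libraries 4, 5 and 6. RNA of airway epithelium thus lay in T and B cell barcodes of the 4 libraries described here and was at or near 0 in those of the other 3, although every sample label names lung. Whether it was free RNA or came from cells captured together was not tested. Pairs of barcodes with the same sequence in different libraries numbered 64 among libraries 1, 2, 3 and 7, and 5 of them held a member. Defining markers of another cell type (54 genes in 9 lists) reached 5 UMIs within 1 list in 138 members, 24, 62, 44 and 8 by library. Endothelial markers did so in 46 members, alveolar macrophage markers in 40, neutrophil markers in 20, dendritic cell markers in 18, mesenchymal markers in 16, epithelial markers in 6, lymphoid and erythroid markers in 3 each, and eosinophil or basophil markers in 2. The doublet caller Scrublet marked 56 members, 51 of them among those 138. Values without the 138 members, an alternative chosen after values had been seen, are given beside many of the results below. Members without other markers, as named below, are those left after these 138 were set aside by the 54 genes. For alveolar macrophages these were 5 genes, whereas the list summed below has 8. Plet1 of the longer list had 5 or more UMIs in 92 members, so cells carrying it remain among those left.

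Many defining genes of other lineages were seen in few members. The eosinophil peroxidase gene Epx and the erythroid gene Alas2 had no UMI, which at this depth allows up to 3 UMIs among 11809099, and the neutrophil genes Ly6g, Camp and Ngp were seen in 3, 1 and 2 of the 1068 cells. Other neutrophil markers were seen in more, Csf3r in 618 cells, S100a8 in 197 and S100a9 in 134. Cxcr2, Retnlg and Mmp9 were seen in 34, 32 and 28 cells. The T cell genes Cd3d and Trac were seen in 7 and 4 cells. Of the other lymphoid markers, Ighm was seen in 658 cells, Cd79b in 113 and each of the rest in at most 26. Summed over the whole marker lists, the neutrophil markers reached 133, 636, 1884 and 948 CPM in libraries 1, 2, 3 and 7, with S100a9 the most abundant, and the endothelial markers 281, 333, 284 and 161 CPM, with Cldn5 the most abundant. The epithelial markers reached 261, 629, 2057 and 112 CPM, led by Scgb1a1, and the mesenchymal markers 202, 353, 300.1 and 8.29 CPM, led by Inmt. The alveolar macrophage markers reached 4555, 6437, 2388 and 15130.2 CPM, led by Chil3 at 4219, 5524, 2036 and 14260.1 CPM. Of the others on that list Ear2, whose reads can be split with those of related genes, was seen in 437 of the 1068 cells, Plet1 in 123, Ear1 in 77, Siglecf in 54, Krt79 in 40, Marco in 24 and Fabp1 in 18. The dendritic cell markers reached 45.4, 74.0, 46.9 and 101 CPM, led by Flt3, the lymphoid markers 142, 187, 246 and 99.4 CPM, led by Ighm, and the eosinophil and basophil markers 6.57, 1.64, 0 and 2.37 CPM, led by Fcer1a. Without the 138 members, the neutrophil markers summed to 148, 199, 169 and 199.7 CPM, the endothelial markers to 27.7, 43.3, 23.1 and 31.5 CPM and the mesenchymal markers to 17.6, 49.4, 31.0 and 9.01 CPM. The alveolar macrophage markers still summed to 3875, 5744, 2123 and 13982 CPM and the epithelial markers to 250, 661, 717 and 128 CPM. The lymphoid markers then reached 151, 183, 202 and 104 CPM and the dendritic cell markers 20.7, 24.1, 21.6 and 30.0 CPM.

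Promoter sequence is shown for the gene groups by which the members were divided into ranges, the interferon-stimulated genes and the MHC class II genes. An interferon-stimulated response element is the site bound by the factors that interferon activates, and its core was searched as GAAA, 2 bases of any kind and GAAA again, on both strands within the 250 bases before each RefSeq gene start of GRCm38.p6. Windows around the match, with the match or overlapping matches in capitals, are given 5′ to 3′ in the direction of the gene for Isg15 (chr4:156200840-156200919, minus strand), Ifit3 (chr19:34583372-34583451, plus strand), Rsad2 (chr12:26456528-26456607, minus strand), Slfn5 (chr11:82951912-82951991, plus strand), Bst2 (chr8:71537552-71537631, minus strand) and Cxcl10 (chr5:92349058-92349137, minus strand), because these genes describe the interferon range of the members.
Isg15: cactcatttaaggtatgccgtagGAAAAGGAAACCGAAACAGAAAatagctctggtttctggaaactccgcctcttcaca
Ifit3: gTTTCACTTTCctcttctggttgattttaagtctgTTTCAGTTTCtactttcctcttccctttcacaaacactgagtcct
Rsad2: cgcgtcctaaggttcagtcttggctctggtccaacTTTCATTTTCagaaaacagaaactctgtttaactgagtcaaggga
Slfn5: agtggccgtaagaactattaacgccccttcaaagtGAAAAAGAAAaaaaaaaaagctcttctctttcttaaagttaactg
Bst2: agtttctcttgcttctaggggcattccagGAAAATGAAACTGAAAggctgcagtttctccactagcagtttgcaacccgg
Cxcl10: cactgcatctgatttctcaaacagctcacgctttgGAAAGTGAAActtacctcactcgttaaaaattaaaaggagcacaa
In Ifit3 and Rsad2 the match lay on the opposite strand and so reads as its reverse complement. The core was found in 12 of the 26 interferon-stimulated genes of the list with a promoter in the table (46.2%) and in 936 of 27025 genes overall (3.46%), or 2.98% of 32851 promoters.

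MHC class II genes are switched on through a shared promoter module of an X box and a Y box, at which the coactivator encoded by Ciita acts. The X box core was searched as AGCAAC, 1 base of any kind and GATG, and the Y box as CCAAT, on both strands, with neither containing the other. H2-Eb1 (chr17:34305740-34305820, plus strand) is shown with its X box match and H2-Aa (chr17:34287832-34287906, minus strand) with its Y box match, which lies on the opposite strand.
H2-Eb1: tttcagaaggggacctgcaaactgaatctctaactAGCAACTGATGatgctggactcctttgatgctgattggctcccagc
H2-Aa: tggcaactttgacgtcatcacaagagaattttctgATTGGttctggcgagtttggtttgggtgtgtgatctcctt
The X box letters were present in 1 of 8 class II list genes with a promoter and in 0.0703% of all genes. The Y box letters were present in 5 of the 8 (62.5%) and in 37.5% of all genes. The 5 were H2-Aa, H2-Eb1, H2-DMa, H2-DMb1 and H2-DMb2. The others of the 8 were Cd80, Ctss and Ifi30, which are on the list but do not encode class II molecules. A match describes these letters in these windows and is not a measured binding site.

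The members carried the expression programme of classical monocytes in each library, and their rule genes differed in level between libraries. Ly6c2 stood at 1219.9 (1183 to 1258), 1019 (989 to 1049.7), 1531 (1489 to 1574) and 595 (545 to 649.8) CPM in libraries 1, 2, 3 and 7 and was detected in 94.6, 77.1, 93.8 and 67.7% of cells. Library 7 was lowest and library 3 highest in Ly6c2, with intervals that did not overlap. Ccr2, the receptor for monocyte chemoattractants, stood at 926, 830.0, 964 and 1045 CPM, and F13a1, the A chain of coagulation factor XIII, at 688, 495, 586 and 716 CPM. Vcan, the matrix proteoglycan versican, stood at 83.9, 49.2, 57.1 and 143 CPM.

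Of the 30 genes on the monocyte programme list, none of them used by the rule, every one passed 100 CPM over the 4 libraries together, and their summed level was 60329.7, 67453, 68038 and 58699 CPM. Lyz2, which encodes lysozyme, was the most abundant of them at 24916, 33809, 32434 and 19629.8 CPM. Plac8 stood at 3786, 2631, 3802 and 2120.2 CPM, and Fn1, encoding fibronectin, at 1935, 1466, 1301 and 1729.5 CPM. Lyz2 and Plac8 were lowest in library 7, and Fn1 in library 3. Cd14, the coreceptor for lipopolysaccharide, stood at 567, 550.1, 667 and 440.4 CPM. Thbs1, encoding thrombospondin 1, reached 501, 605, 1055 and 481 CPM and was highest in library 3. S100a8 and S100a9 of this list were below 100 CPM in each library without members carrying other markers. They then stood at 17.98, 82.2, 32.2 and 48.0 CPM and at 6.92, 27.3, 28.0 and 12.01 CPM. Granule genes of early myeloid cells were low: of 13 on the list only Cd177 passed 100 CPM, at 134, 93.0, 129 and 86.4 CPM by library. None of the 11 cell cycle genes passed it, and their summed level was 234, 655, 209 and 543 CPM, higher in libraries 2 and 7, but 197, 341, 78.7 and 386 CPM without members carrying other markers, with library 7 highest.

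**Figure D1:**
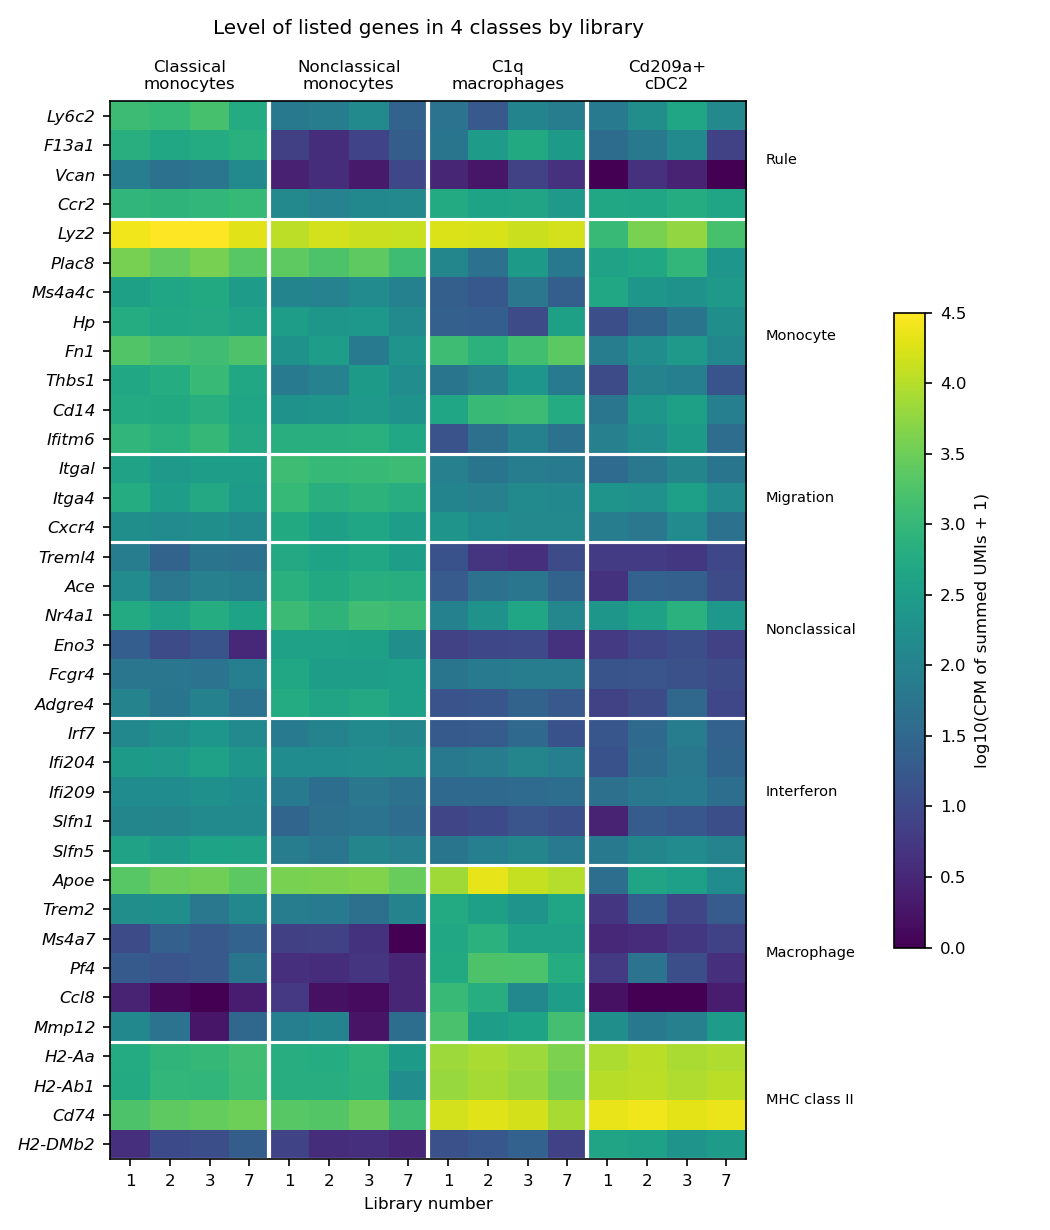
Heat map of log10(CPM + 1) for 36 genes (rows) in classical monocytes, nonclassical monocytes, C1q macrophages and cDC2 of libraries 1, 2, 3 and 7 (columns). Ly6c2 and Ccr2 are brightest in classical monocytes, Eno3 and Fcgr4 in nonclassical monocytes, Ms4a7 and Ccl8 in C1q macrophages and Cd74 and H2-DMb2 in cDC2 in all 4 libraries, and genes used by a class rule are part of how that class was drawn.

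Comparison with nonclassical monocytes asked which genes set the members apart from their vessel-patrolling relatives, and of the 3 classes compared it had the fewest genes past 2-fold. They were 1202 barcodes, 572, 220, 360 and 50 by library, with at least 4 UMIs over Treml4, Ace, Spn and Cd300e, at least 1 UMI of Csf1r and none of the endothelial gene Cdh5. Of 1772 genes with at least 100 CPM in either class, 30 (1.69%) were at least 2-fold higher and 68 (3.84%) at least 2-fold lower in classical monocytes in each of the 4 libraries. With 1 matrix and no replicates, these are descriptions without a test. The median log2 ratio over all 1772 genes was -0.05.

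The 12 genes furthest above nonclassical monocytes included the matrix genes Fn1 and Thbs1 and 3 interferon-inducible genes. Fn1 stood at 1935, 1466, 1301 and 1729.5 CPM in classical against 192, 332, 66.6 and 212 CPM in nonclassical monocytes of libraries 1, 2, 3 and 7, log2 ratios of 3.33, 2.14, 4.29 and 3.03. Cd177, encoding a surface protein known from neutrophils, stood at 114 against 12.5 CPM over the libraries together. Thbs1 (694 against 149.6 CPM) was likewise higher in all 4 libraries. Epas1, which encodes the hypoxia-inducible factor HIF-2α and is abundant in endothelium, stood at 106 against 18.2 CPM, but without the members that carried other markers it stood at 16.1 CPM and was no longer higher in any library. The interferon-inducible genes were Slfn5 (364 against 85.7 CPM), Ifi203 (234 against 56.8 CPM) and Ifi211 (209 against 48.1 CPM). Wfdc17 (829.9 against 183 CPM), Ms4a4c (444 against 116 CPM), Iqgap2 (107 against 26.1 CPM) and the C-type lectin gene Clec4a2 (143 against 42.7 CPM) were also among them. Without those members 27 of the 30 higher and 61 of the 68 lower genes stayed past 2-fold in each library.

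The 12 genes furthest below nonclassical monocytes included Eno3, Pglyrp1, Adgre4, Fcgr4 and Dusp16 of the nonclassical programme list. Eno3, encoding the β enolase of muscle, stood at 21.5, 10.1, 14.05 and 2.37 CPM in classical against 375, 368, 361 and 176 CPM in nonclassical monocytes, log2 ratios of -4.12, -5.19, -4.68 and -6.21. Slc12a2, a sodium, potassium and chloride cotransporter (21.8 against 391 CPM), and Dusp16, a phosphatase of MAP kinases (28.8 against 398 CPM), were low in the same way. S1pr5, the sphingosine 1-phosphate receptor that guides lymphoid and monocyte exit from marrow (13.5 against 139 CPM), the Fc receptor gene Fcgr4 (58.3 against 393 CPM) and the survival gene Bcl2 (27.9 against 216 CPM) followed. Pglyrp1 (44.0 against 480.5 CPM), Adgre4 (79.2 against 521 CPM), Cd300ld (53.8 against 379.8 CPM), Cyfip2 (38.6 against 253 CPM), Ly6i (21.7 against 142 CPM) and Stap1 (99.8 against 478 CPM) were also lower in every library. Ly6i belongs to the Ly6 family of near-identical copies, among which reads can be split.

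By list, 7 of 29 monocyte programme genes compared were higher and 1 was lower than in nonclassical monocytes (median log2 ratio 0.74), the lower one being S100a8 at 329 against 953 CPM. Of 10 interferon-stimulated genes, 3 were higher (Ifi209, Slfn1 and Slfn5) and 0 lower, with a median log2 ratio of 1.05. Of 13 genes of the nonclassical programme outside the class rules, 11 were lower and 0 higher (median -1.77), among them Nr4a1, encoding the nuclear receptor that nonclassical monocytes depend on (497 against 1156 CPM), and Pou2f2 (411 against 1267 CPM). Among 21 transcription factor genes, Cebpa was higher (104 against 43.9 CPM) and Nr4a1 lower. Without members carrying other markers Nr4a1 had log2 ratios of -0.97, -1.14, -1.09 and -1.36 and just missed 2-fold in library 1. Of 14 adhesion and migration genes, 1 was higher while the integrin gene Itgal (318 against 1162 CPM) and the chemokine receptor gene Cxcr4 (161 against 456 CPM) were lower. None of 11 protease and inhibitor genes, 12 growth factor and cytokine receptor genes, 9 inflammatory mediator genes or 9 dissociation response genes compared passed 2-fold in all 4 libraries.

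**Figure D2:**
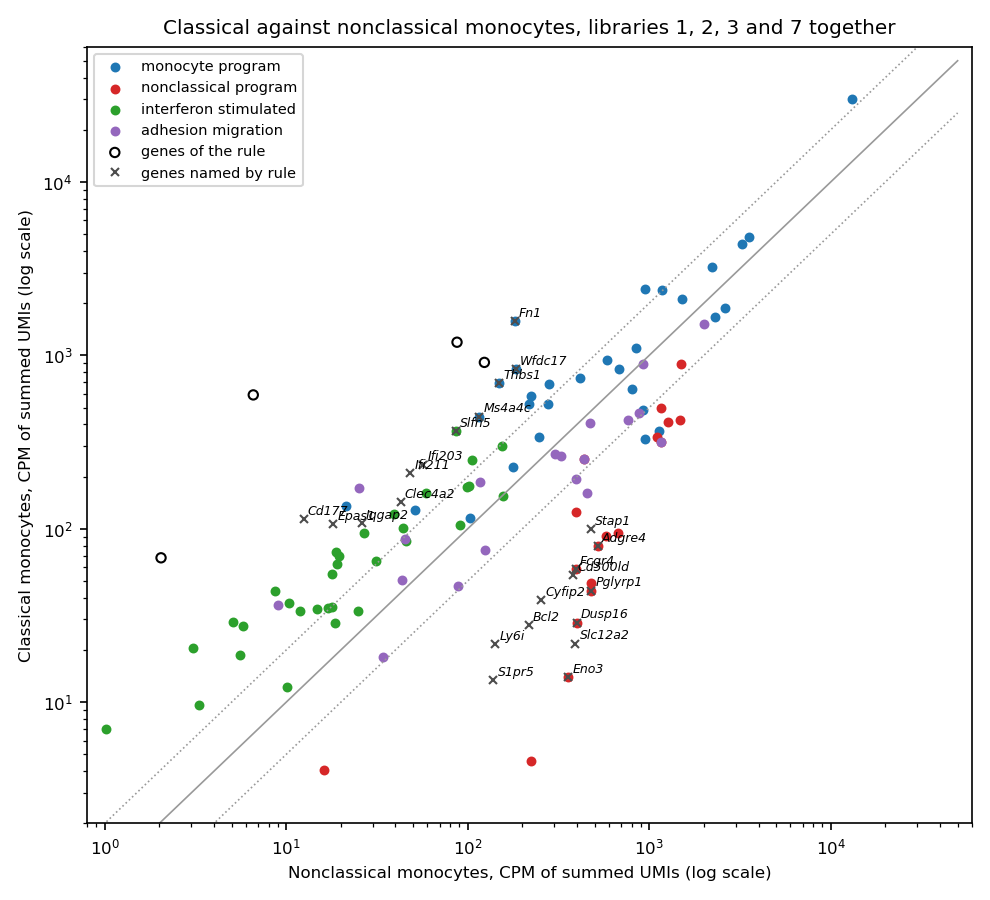
Scatter plot of CPM in classical monocytes against CPM in nonclassical monocytes over libraries 1, 2, 3 and 7 together, both axes on a log scale, with 1 point per gene, a solid line at equal levels and dotted lines at a 2-fold difference. Of the 1772 genes compared, 30 were at least 2-fold higher and 68 at least 2-fold lower in classical monocytes in each library.

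Comparison with C1q macrophages placed the members against the tissue-resident cells that they can give rise to. C1q macrophages were 1051 barcodes (520, 294, 115 and 122 by library) with at least 10 C1q UMIs and at least 1 of Csf1r. Of 1728 genes, 81 (4.69%) were at least 2-fold higher and 62 (3.59%) at least 2-fold lower in classical monocytes in each library, and the median log2 ratio of all genes was 0.16. Plac8 stood at 3786, 2631, 3802 and 2120.2 CPM against 118, 48.5, 278 and 65.7 CPM in C1q macrophages of libraries 1, 2, 3 and 7, log2 ratios of 5.01, 5.76, 3.77 and 5.01. Itgb7, encoding integrin β7, stood at 186 against 14.05 CPM and was higher in every library. Irf7, a master factor of interferon induction, stood at 125, 175, 233 and 134 against 18.2, 19.3, 33.1 and 12.6 CPM. The antiviral genes were Ifitm3 at 4381 against 422 CPM, Ifitm6 at 829.9 against 31.5 CPM and Slfn1 at 122 against 9.11 CPM. The rule also named Ms4a4c (444 against 23.8 CPM), Gpr141 (204 against 19.4 CPM), Cd177 (114 against 2.74 CPM), Napsa (453 against 75.3 CPM) and Ifi211 (209 against 34.1 CPM).

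The 12 genes furthest below C1q macrophages included the chemokine genes Ccl8, Ccl12 and Pf4 and the elastase gene Mmp12. Ccl8 stood at 1.79, 0.234, 0 and 1.18 CPM against 1119, 629, 127 and 335 CPM in C1q macrophages, and Ccl12 at 1.27 against 222 CPM. Pf4, a platelet and macrophage chemokine, stood at 17.6, 14.5, 17.3 and 55.6 against 540.3, 1751, 1696 and 614 CPM, with log2 ratios of -4.94, -6.91, -6.61 and -3.46. Mmp12, macrophage elastase, which cleaves elastin, stood at 123, 49.9, 0.897 and 31.96 against 1631, 334, 406 and 1426 CPM and was low in every library, also without members carrying other markers (5.88, 29.8, 0.378 and 34.5 CPM). Ms4a7 (17.9 against 519 CPM), the lectin gene Mgl2 (13.97 against 469 CPM), the growth factor gene Igf1 (23.8 against 358 CPM), the cholesterol transporter gene Abca1 (12.8 against 146 CPM), Cd72 (1.86 against 139 CPM), Cd81 (79.8 against 558 CPM), H2-M2 (6.52 against 176 CPM) and Rnase2a (3.39 against 156 CPM) were the others. Rnase2a belongs to a multigene family whose copies can share reads.

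By list, 12 of 22 genes of the monocyte-to-macrophage transition were lower and 0 higher (median log2 ratio -2.06), Apoe (2799.7 against 11252 CPM) and the tetraspanin gene Cd63 (151 against 1209 CPM) among them. The 4 class II genes H2-Aa (867 against 7026 CPM), H2-Ab1, H2-Eb1 and Cd74, were lower of 8 class II list genes compared (median -2.11). Of 10 interferon-stimulated genes 8 were higher and 0 lower (median 1.99). Of 29 monocyte programme genes 9 were higher and 0 lower (median 1.18), with S100a4 (2389.7 against 569 CPM) and S100a6 (2400.3 against 732 CPM) among the higher. Of 16 adhesion and migration genes 5 were higher and 1 was lower, with Itga4 among the higher (465 against 108 CPM). In the protease and inhibitor list, Mmp12, Mmp14 (10.3 against 136 CPM) and Timp2 (84.2 against 524 CPM) were lower of 17 compared and none was higher. Without members carrying other markers 80 of the 81 higher and 61 of the 62 lower genes stayed past 2-fold in each library.

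Type 2 conventional dendritic cells (cDC2) are antigen-presenting cells that share many genes with monocytes. They were 468 barcodes (106, 181, 85 and 96 by library) with at least 2 UMIs of Cd209a and at least 10 over H2-Aa, H2-Ab1 and H2-Eb1. Of 1701 genes, 139 (8.17%) were at least 2-fold higher and 76 (4.47%) at least 2-fold lower in classical monocytes in each library, with an all-gene median log2 ratio of 0.12. Cebpb, a transcription factor of myeloid cells, stood at 2176, 2418, 2785 and 2226 CPM against 122, 387, 465 and 191 CPM in cDC2. Apoe, encoding apolipoprotein E, stood at 2179, 2930.2, 3379 and 2306 against 42.0, 416, 347 and 151 CPM, log2 ratios of 5.70, 2.82, 3.28 and 3.94. The lipid receptor gene Trem2 (135 against 14.3 CPM), the metal transporter gene Slc11a1 (132 against 13.0 CPM), the protease inhibitor gene Slpi (248 against 22.0 CPM) and Pla2g7 (155 against 13.2 CPM) were higher too. Gsr, glutathione reductase (643 against 60.7 CPM), Thbs1 (694 against 58.1 CPM), Cd177 (114 against 1.54 CPM), Sirpb1c (238 against 26.4 CPM), Ifi204 (301 against 33.7 CPM) and Slfn1 (122 against 12.6 CPM) completed the list of 12.

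The 12 genes furthest below cDC2 included 3 genes of class II presentation and 2 chemokine genes that attract T cells. Cd74, the class II invariant chain, stood at 1729.9, 2439, 2768 and 3148 CPM against 22161, 25500.0, 20843 and 23339 CPM in cDC2. The peptide-loading genes H2-DMb2 (8.81 against 342 CPM) and H2-Oa (4.4 against 175 CPM) were lower, as were the chemokine genes Ccl17 (66.6 against 1586 CPM) and Ccl22 (10.7 against 175 CPM). Mgl2 (13.97 against 1348 CPM), Klrd1 (4.06 against 273 CPM), the kynurenine pathway enzyme gene Kmo (4.57 against 116 CPM), Fgfr1 (7.62 against 122 CPM), the cyclin D1 gene Ccnd1 (20.1 against 435 CPM) and Tnip3 (41.7 against 824 CPM) followed. Cd209d, a close relative of the rule gene Cd209a, had 0 UMIs in the members against 103 CPM in cDC2. By list, 18 of 30 monocyte programme genes were higher and 0 lower (median log2 ratio 1.88), and 7 of 10 interferon-stimulated genes were higher (median 1.65). Of 6 genes of the class II list outside the class rules 5 were lower (median -2.26). Of 12 receptor genes 4 were higher, including Csf1r (487 against 129.6 CPM), which encodes the receptor for the monocyte growth factor, and Flt3 was lower (16.6 against 115 CPM). Of 12 protease and inhibitor genes, Ctsb (945 against 371 CPM), Plaur (369 against 87.9 CPM) and Slpi were higher and Cst3 was lower (2764 against 10096 CPM). Of 12 transition genes compared 4 were higher and 0 lower, with Apoe, Trem2 and Lpl among the higher. Without members carrying other markers Lpl fell short of 2-fold in library 3 (log2 ratio 0.81), and 133 of the 139 higher and all 76 lower genes stayed past it.

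Between libraries 63 differences were counted among the members, with a gene counted once for each library in which it stood apart. A gene stood apart in a library when its CPM was at least 2 times, or at most 0.5 times, that of each of the other 3, among 1903 genes with at least 100 CPM in a library. Library 1 had 2 genes higher (0.105%) and 8 lower (0.42%), library 2 had 5 higher (0.263%) and 0 lower (0%), library 3 had 5 higher (0.263%) and 21 lower (1.1%), and library 7, with 62 members, had 19 higher (0.998%) and 3 lower (0.158%). Without the 138 members that carried markers of another cell type, 307, 292, 277 and 54 members remained. The counts were then 1 higher and 7 lower in library 1, 2 and 0 in library 2, 2 and 28 in library 3, and 24 and 3 in library 7, of 1865 genes, and 20 of the 31 higher and 22 of the 32 lower calls stayed past 2-fold. Library number and condition cannot be matched, so these are differences between captures of unknown groups. The share of a gene's UMIs held by the 5 cells with most of them, a measure chosen after values had been seen, was over 50% in that library for 22 of the 31 higher calls (median 76.3%), 13 of them among the 19 of library 7.

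Several genes known from the conversion of monocytes into macrophages differed between the libraries, among them Spp1 and Lpl, which were higher in libraries 2 and 7 than in libraries 1 and 3. Spp1, encoding osteopontin, stood at 76.7, 1585, 14.05 and 975 CPM in libraries 1, 2, 3 and 7 and was detected in 8.16, 44.9, 5.3 and 43.5% of cells. Libraries 2 and 7 were thus high both in level and in the share of cells, although 5 cells held 83.7, 52.1, 72.3 and 69.1% of the UMIs. Without the members that carried other markers, Spp1 stood at 61.2, 1769, 3.41 and 1087 CPM. Plet1 of the alveolar macrophage list stood at 5.19, 250, 2.27 and 227 CPM without them, high in the same libraries. Lpl, lipoprotein lipase, stood at 146, 869.5, 409 and 1199 CPM and was detected in 29.0, 65.3, 60.4 and 48.4% of cells, with library 1 lowest, and at 81.6, 759, 263 and 1036 CPM without those members. Mmp12 stood at 123, 49.9, 0.897 and 31.96 CPM, highest in library 1, but at 5.88, 29.8, 0.378 and 34.5 CPM without them, where library 1 was below libraries 2 and 7. Hmox1, heme oxygenase 1, was highest in library 2 with and without them (79.4, 301, 44.8 and 147 and 82.6, 380.0, 43.9 and 141 CPM). Fabp4, a fatty acid carrier of alveolar macrophages and endothelium, stood at 25.7, 168, 17.04 and 74.6 CPM, highest in library 2, but at 14.5, 33.4, 6.81 and 66.1 CPM without them, highest in library 7. AA467197 stood at 98.2, 84.5, 1.79 and 256 CPM and at 36.0, 57.8, 0.757 and 311 CPM without them, highest in library 7 and lowest in library 3 in both. Among all members, 5 cells held 95.1% of the Mmp12 UMIs of library 1 and 84.3% of the AA467197 UMIs of library 7. In library 2, 5 cells held 71.8% of the UMIs of Hmox1 and 86.1% of those of Fabp4.

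Cathepsins are the lysosomal proteases that the study followed in eosinophils, and monocytes carry them as well. Ctsl, cathepsin L, which can cleave elastin, stood at 118 (106 to 129.9), 227 (213 to 242), 69.9 (61.3 to 79.5) and 179 (151 to 209.6) CPM in libraries 1, 2, 3 and 7 and was detected in 46.8, 57.1, 39.6 and 59.7% of cells. Libraries 2 and 7 were higher than 1 and 3 beyond counting error, and without the members with other markers the levels were 86.8, 219, 53.3 and 194 CPM. Ctsd, cathepsin D, stood at 630.1, 2178, 280.1 and 2070.5 CPM, with the libraries in the same rank order, but its median over single cells was 260.2, 279.8, 127 and 396 CPM and 5 cells held 44.7, 18.9, 26.3 and 41.7% of its UMIs. Ctsb stood at 979, 923, 841 and 1339 CPM and Ctss at 1952, 2810.0, 1781 and 2677 CPM. Summed over the 24 genes of proteases and their inhibitors the level was 9581, 12769.7, 8554 and 12432 CPM, highest in libraries 2 and 7. That sum includes Ctsd and Ctss, and Ctsb, also in it, was lower in library 2 than in library 1. Mrc1, the mannose receptor, stood at 48.1, 278, 58.0 and 346 CPM and Cd63, a lysosomal tetraspanin, at 88.4, 285, 28.7 and 205 CPM, with the same pair of libraries high, also without members carrying other markers (23.9, 225, 23.8 and 327 and 46.3, 265, 2.27 and 204 CPM). Of the alveolar macrophage list, Plet1 (5.19, 250, 2.27 and 227 CPM) and Ear2 (178, 388, 145 and 348 CPM) were then high in the same pair. Ear1 (1.38, 10.59, 2.27 and 15.01 CPM) was also higher in that pair, at low levels. Krt79 (1.73, 2.57, 3.78 and 1.5 CPM) and Marco (0.692, 0.963, 0.757 and 0 CPM) were not. However, Ear1, Krt79 and Marco were among the 5 alveolar macrophage genes by which members had been set aside. Low levels of these genes follow from that step and cannot show whether alveolar macrophage RNA was present. The part of alveolar macrophage RNA in this pattern was not tested. The 25 transition genes summed to 6197, 9827, 6634 and 9064 CPM.

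Chil3, encoding the chitinase-like protein Ym1 that both monocytes and alveolar macrophages make, varied widely between libraries. It stood at 4219, 5524, 2036 and 14260.1 CPM, was detected in 87.9, 94.4, 81.9 and 100% of cells, and had a median over single cells of 888, 1787, 1190.2 and 4322 CPM. Library 7 was highest on both measures, whereas the 5 cells with most UMIs held 51.8, 16.3, 12.9 and 57.9% of the total. T and B cells of the same libraries held 524, 329, 267 and 428 CPM of Chil3, and without the members with other markers the level was 3686, 5088, 1966 and 13386 CPM. Lyz1, a second lysozyme gene whose reads can be split with Lyz2, stood at 6.57, 94.6, 301 and 205 CPM. Gatm, glycine amidinotransferase, reached 388 CPM in library 7 against at most 25.5 elsewhere, with 91.2% of its UMIs there in 5 cells. The chemokine gene Cxcl9 stood at 3.28, 12.2, 25.1 and 309 CPM, but its UMIs lay in only 3, 4, 2 and 3 cells of libraries 1, 2, 3 and 7. Gm42418, which overlaps ribosomal RNA sequence, stood at 3477, 2583, 3154 and 15599 CPM, while T and B cells of the same libraries held 5124, 3166, 4396 and 18112 CPM, with library 7 highest in both.

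Several genes that stood apart are products of other cells, and their levels in T and B cells are given beside them. The neutrophil genes S100a9 and S100a8 stood at 5.97, 215, 924 and 382 and at 17.9, 279, 688 and 386 CPM in the members, lowest in library 1. T and B cells held 47.8, 69.2, 347 and 367 CPM of S100a9, and without members carrying other markers S100a9 stood at 6.92, 27.3, 28.0 and 12.01 CPM and S100a8 at 17.98, 82.2, 32.2 and 48.0 CPM. Most of the S100a9 in libraries 2, 3 and 7 thus lay in the members with markers of another cell type. Sftpc, surfactant protein C of alveolar type 2 cells, stood at 19.4, 92.3, 1192 and 11.8 CPM, with 93.3% of its library 3 UMIs in 5 cells, and T and B cells held 1543, 118, 864 and 12.5 CPM. Without members carrying other markers Sftpc in library 3 stood at 92.3 CPM and Sftpa1 at 12.9 CPM. Sftpa1 stood at 6.57, 18.97, 173 and 4.74 against 362, 26.2, 183 and 4.81 CPM in T and B cells. Mgp, matrix Gla protein of mesenchyme, stood at 144, 760.2, 667 and 26.0 CPM in the members and at 4.65, 1338, 582 and 128 CPM in T and B cells, lowest in libraries 1 and 7 in both, and at 5.19, 139.9, 35.6 and 6.01 CPM in the members without other markers. Inmt (0.597, 132, 51.4 and 2.37 CPM), Bgn (28.4, 116, 25.7 and 15.4 CPM) and Igfbp7 (27.8, 118, 73.2 and 0 CPM) had their highest level in library 2 in the members and in T and B cells alike. Without members carrying other markers their levels in library 2 were 11.9, 13.8 and 11.2 CPM. Cd81 stood at 41.8, 144, 41.5 and 56.8 CPM, and T and B cells held more of it, at 122, 201, 132 and 168 CPM, while members without other markers held 10.4, 61.9, 16.3 and 37.5 CPM. The part of free RNA in these differences was not tested.

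**Figure D3:**
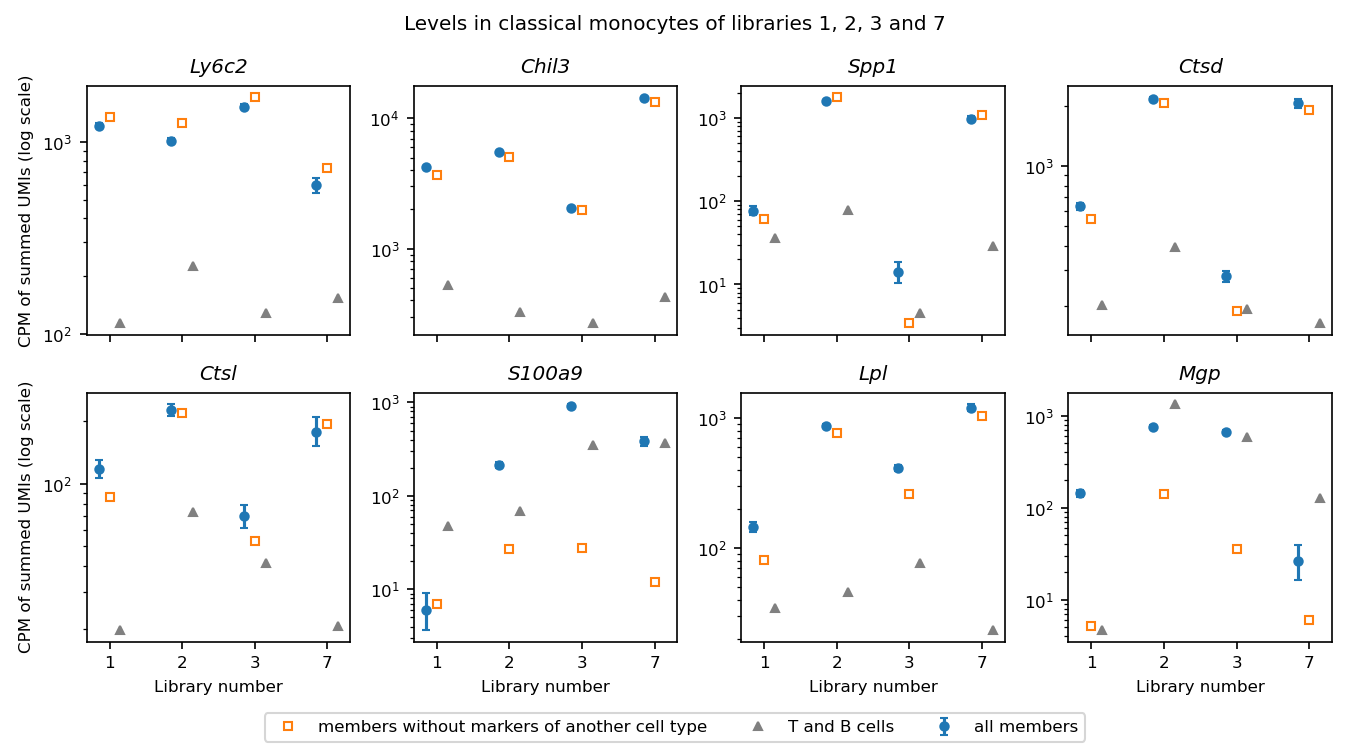
CPM of Ly6c2, Chil3, Spp1, Ctsd, Ctsl, S100a9, Lpl and Mgp in libraries 1, 2, 3 and 7. All members are shown with exact 95% Poisson intervals as bars. Beside them are members other than those set aside for markers of another cell type, and T and B cells of the same library. Ctsl was higher in libraries 2 and 7 with and without the set-aside members, whereas S100a9 dropped to at most 28.0 CPM without them.

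The members varied along the class II genes, which monocytes raise when they take up antigen-presenting duties. Each cell was thinned to 2000 UMIs, which left out 2 members with fewer and kept 1066, and the UMIs of H2-Aa, H2-Ab1, H2-Eb1 and Cd74 were summed. Of the 1066 cells, 792 had 0 to 4 of these UMIs, 130 had 5 to 19 and 144 had at least 20 (13.5%, 11.5 to 15.7). The highest range held 32, 51, 49 and 12 cells of libraries 1, 2, 3 and 7, or 9.70%, 14.4%, 15.3% and 19.7%, with overlapping intervals. These ranges cut a score and are not cell types, and 6 cells lay within 2 UMIs below the upper edge and 11 at or within 2 above it. Of 1790 genes outside the sum, 29 (1.62%) were at least 2-fold higher and 40 (2.23%) at least 2-fold lower in the highest than in the lowest range, with an all-gene median log2 ratio of -0.06.

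The partner genes of class II moved with the sum. Ciita stood at 7.58 CPM (3.91 to 13.2) in the lowest and 201 CPM (153 to 260.3) in the highest range, and by library it went from 9.47, 5.93, 6.52 and 11.1 CPM in the lowest to 141, 147, 265 and 333 CPM in the highest range of libraries 1, 2, 3 and 7. H2-DMb1 stood at 70.1, 350 and 747 CPM over the 3 ranges in ascending order and H2-DMa, its partner in peptide loading, at 222, 408 and 760.4 CPM. Both were higher in each successive range, and 4 of the 5 other class II list genes compared were at least 2-fold higher in the highest range (median log2 ratio 1.78). Aif1, a macrophage activation gene, stood at 137, 250 and 427 CPM, but in library 7 it was lower in the highest range (83.3 CPM, 2 UMIs) than in the lowest (122 CPM). Apoe stood at 2796, 3392 and 4712 CPM.

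Several secreted and metabolic monocyte genes ran the other way. Slpi stood at 295, 165 and 48.6 CPM over the ascending ranges, Hp, encoding haptoglobin, at 690.0, 377 and 219 CPM and Mgst1 at 669, 385 and 205 CPM. Each was lowest in the highest range, and of 29 monocyte programme genes compared 7 were at least 2-fold lower and 1 higher (median log2 ratio -0.36). Over all genes compared 2.23% were lower and 1.62% higher. The 7 include S100a9, most of which lay in members carrying other markers (below). Fn1 stood at 1790.4, 1181 and 865 CPM and Cd177 at 154, 115 and 48.6 CPM. Ly6c2, a rule gene, stood at 1415, 1265 and 1118 CPM over the ascending ranges, and it was at least 2-fold lower in the highest than in the lowest range in library 1 (516 against 1506 CPM) but not in library 2 (1451 against 1289 CPM). Without members carrying other markers, Ciita stood at 5.64, 56.1 and 138 CPM, Mgst1 at 708, 327 and 321 CPM and Slpi at 295, 126 and 44.6 CPM over 709, 107 and 112 cells.

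Other genes named for this range rested on few cells or on other cell types. Ccl17 stood at 1.89, 0 and 194 CPM, its UMIs in the highest range coming from 5, 3, 0 and 1 cells of libraries 1, 2, 3 and 7, and Retnla at 11.99, 15.4 and 920.1 CPM from 1, 1, 3 and 2 cells. Lyz1 stood at 55.6, 19.2 and 486 CPM from 1, 3, 5 and 1 cells. With members carrying other markers left out and the thinning drawn anew, Ccl17 stood at 2.12, 0 and 71.4 CPM, Retnla at 11.99, 289.7 and 585 CPM and Lyz1 at 58.5, 112 and 415 CPM. S100a9 at 352, 254 and 10.4 CPM and Mgp at 315, 677 and 76.4 CPM became 18.3, 79.4 and 8.93 and 57.8, 187 and 49.1 CPM without members carrying other markers. Tnip3 stood at 20.2, 46.2 and 108 CPM. Before thinning, the C1q genes and each of 8 dendritic cell genes had a median of 0 UMIs per cell in the highest range. At that full depth Flt3 was seen in 22 of the 144 cells, Mgl2 in 15, Xcr1 and Clec9a in 11 each, Zbtb46 in 9, Ccr7 in 5, Siglech in 4 and Fscn1 in 3, and C1q in 25, whereas after thinning Flt3 and Mgl2 were seen in 5 cells each and Xcr1 in 4. A small number of dendritic cells without a Cd209a UMI therefore cannot be told apart from the members of that range.

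A much smaller group carried an interferon response, the antiviral programme that type I interferon switches on in most cells. Of the 1066 thinned cells, 850 had 0 UMIs over Isg15, Ifit1, Ifit3 and Rsad2, 195 had 1 to 4 and 21 had at least 5 (1.97%, 1.22 to 2.996). By library the highest range held 1, 9, 10 and 1 cells, and 7 cells lay 1 UMI below its edge and 5 at or within 1 UMI above it. Of the 28 other interferon-stimulated genes on the list, 26 had at least 100 CPM in a range, and 25 of these were at least 2-fold higher in the highest range and 0 lower, with a median log2 ratio of 3.46. Over all 1929 genes compared, 14.9% were higher and 13.2% lower by 2-fold, shares that include the scatter of 21 cells, and the all-gene median was -0.03. The 28 genes summed to 1996, 5289.7 and 14571 CPM over the ascending ranges.

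Irf7 stood at 115 CPM (99.2 to 132) in the lowest and 1262 CPM (945 to 1651) in the highest range and was detected in 18.7%, 40% and 90.5% of cells over the ascending ranges. Ifit2, an inhibitor of viral translation, stood at 5.29, 28.2 and 429 CPM, and Cxcl10, a chemokine for T cells, at 15.9, 126 and 809.5 CPM. The middle range lay between the outer ones for each of these genes. Slfn5 (333, 736 and 1333 CPM), Ifi205 (32.9, 154 and 881 CPM), Mx1 (22.9, 87.2 and 405 CPM) and the virus-tethering gene Bst2 (214, 359 and 643 CPM) followed the same order. With members carrying other markers left out and the thinning drawn anew, the ranges held 728, 177 and 23 cells, and Irf7 stood at 129, 421 and 1326 CPM, Ifit2 at 3.43, 59.3 and 326 CPM, Cxcl10 at 11.7, 67.8 and 1326 CPM and Mx1 at 14.4, 81.9 and 326 CPM in the same ascending order. Of the genes whose promoter windows are printed above, Slfn5, Bst2 and Cxcl10 hold the core and were not part of the sum, whereas Isg15, Ifit3 and Rsad2 were. Irf7 and Ifit2 had no match to these letters in their 250 bases. With 0 C1q UMIs in 1038 of 1066 thinned cells, 1 to 2 in 27 and more in 1, no gene was read along the C1q genes.

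**Figure D4:**
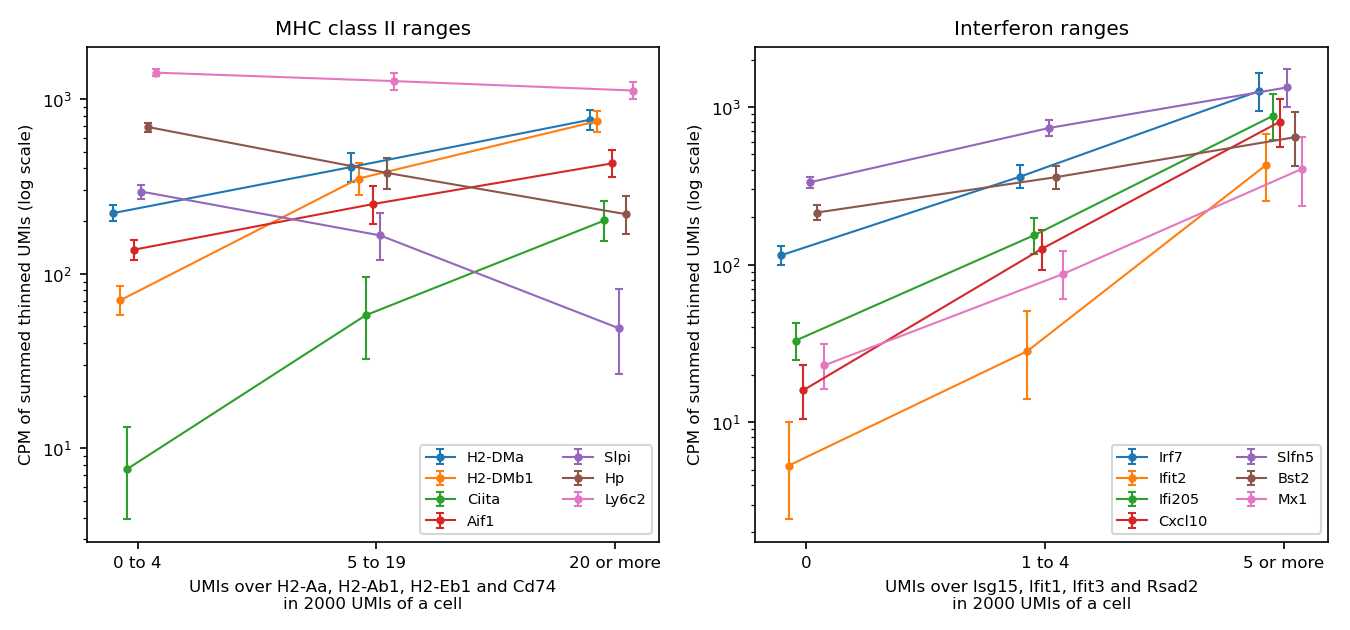
CPM on a log scale in the lowest, middle and highest range of the summed class II UMIs (left; H2-DMa, H2-DMb1, Ciita, Aif1, Slpi, Hp and Ly6c2) and of the summed interferon UMIs (right; Irf7, Ifit2, Ifi205, Cxcl10, Slfn5, Bst2 and Mx1) in members thinned to 2000 UMIs. Ciita and H2-DMb1 are higher and Slpi and Hp lower from left to right in the class II panel, and all 7 interferon genes are higher from left to right.

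Cells that met the same rule in libraries 4, 5 and 6 gave a second set of values from the same matrix, and this comparison was added after values had been seen. Their median UMIs were 11524.5, 12069.5 and 11523.5. Of 2093 genes with at least 100 CPM in a library, 94 (4.49%) were at least 2-fold higher and 17 (0.812%) at least 2-fold lower in each of libraries 1, 2, 3 and 7 than in each of libraries 4, 5 and 6. What these libraries are is not known from the labels, so their values stand side by side without a mean or a test. The 5 erythroid genes summed to 4.18, 5.39, 5.38 and 2.37 CPM in libraries 1, 2, 3 and 7 and to 70226, 27918 and 22919 CPM in libraries 4, 5 and 6, with Hbb-bs the most abundant, so that the CPM of all other genes there is relative to a pool that holds this RNA. The platelet chemokine gene Ppbp stood at 8.36, 1.87, 8.97 and 20.1 against 80.8, 197 and 151 CPM.

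Immediate early and inflammatory genes were higher in the members of libraries 1, 2, 3 and 7. Of 8 genes compared from a list known to respond to tissue dissociation, 7 were higher and 0 lower, and the 11 genes of the list summed to 4595, 4961, 4518 and 6659 CPM against 869, 1407 and 1141 CPM in libraries 4, 5 and 6. Fos stood at 1138, 1325, 871 and 1965 against 215, 404 and 199.6 CPM and Junb at 1375, 1461, 1434 and 1999 against 267, 391 and 336 CPM. T and B cells showed the same order, with Junb at 1009, 821, 1396 and 1060.1 against 100.5, 127 and 117 CPM, so the difference was not confined to monocytes. Of 13 inflammatory mediator genes compared, 9 were higher and 0 lower (8 of the 9 also without members carrying other markers), and the 26 of the list summed to 2442, 3304, 3298 and 3653 against 1006, 1171 and 1149 CPM. Cxcl2, a neutrophil chemoattractant, stood at 221, 402, 213 and 494 CPM in libraries 1, 2, 3 and 7 against 0.528, 4.51 and 0 CPM. Osm, encoding oncostatin M, stood at 112, 163, 84.6 and 148 CPM in libraries 1, 2, 3 and 7 against 1.5, 1.13 and 1.77 CPM. The part of dissociation in these differences was not tested.

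The share of monocyte programme genes that passed 2-fold, 2 of 30, was near that of all genes (4.49% higher). The 30 monocyte programme genes summed to 60329.7, 67453, 68038 and 58699 CPM in libraries 1, 2, 3 and 7 and to 68289.7, 66915 and 76160.3 CPM in libraries 4, 5 and 6, and the 2 were Cd14 (567, 550.1, 667 and 440.4 against 22.6, 40.6 and 23.0 CPM) and Thbs1 (501, 605, 1055 and 481 against 41.0, 111 and 50.4 CPM). Ly6c2 stood at 1238, 1728 and 1430.2 CPM in libraries 4, 5 and 6, within or above the range of the others. None of 18 interferon-stimulated genes compared passed 2-fold, and the list summed to 2372, 2749, 3375 and 2752 against 2746, 4563 and 3950.4 CPM. None of 7 genes of the class II list passed it, although the list summed to 5725, 8397, 7753 and 10139 against 3481, 3138 and 4775 CPM. The list also holds the cathepsin gene Ctss and Cd80, Cd86 and Cd40. Without members carrying other markers it summed to 4549, 7832, 7675 and 7743 CPM in libraries 1, 2, 3 and 7. Of this Ctss made up 1838, 2987, 1922 and 2901 CPM. Among transition genes 4 of 17 were higher and 1 lower in libraries 1, 2, 3 and 7, but none of the 4 stayed past 2-fold without members carrying other markers. Over all genes 64 of the 94 higher and 16 of the 17 lower did, with libraries 4, 5 and 6 left as they were. Epas1 was furthest apart among the higher genes, at 102, 119, 101 and 79.3 CPM in libraries 1, 2, 3 and 7 against 0.792, 1.13 and 0.883 CPM, and stayed past 2-fold without those members at the lower level of 8.64, 27.6, 12.9 and 7.51 CPM. The 12 genes furthest apart also included Tgm2, Cd83, Retnla, Nr4a2, Rgcc, Ets2 and Fosb as higher in libraries 1, 2, 3 and 7, with Fosb at 367, 384, 389 and 483 CPM in libraries 1, 2, 3 and 7 against 6.43, 18.05 and 23.9 CPM. For Retnla 5 cells held 93.2, 96.7, 99.6 and 93.4% of the UMIs in libraries 1, 2, 3 and 7. In library 7 alone, 5 cells held 71.1, 67.5, 75.8 and 66.7% of those of Tgm2, Cd83, Nr4a2 and Rgcc. Sparc, a matrix gene of endothelium and mesenchyme, was also named, at 83.0, 132, 51.4 and 29.6 CPM in libraries 1, 2, 3 and 7 against 0.264, 0.564 and 0 CPM, but stood at 2.07, 15.4, 1.89 and 4.5 CPM without members carrying other markers and no longer passed 2-fold over the 3 UMIs that stand for the count of 0 in library 6. Scgb1a1 was another (222, 494, 580.2 and 92.3 CPM in libraries 1, 2, 3 and 7 against 1.41, 1.69 and 0.883 CPM), and it is the gene given above for T and B cells. Hba-a1, Hba-a2, Hbb-bs, Hbb-bt, Alas2, Nrgn, Bpgm and Ctla2a were among the 12 furthest lower.

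**Figure D5:**
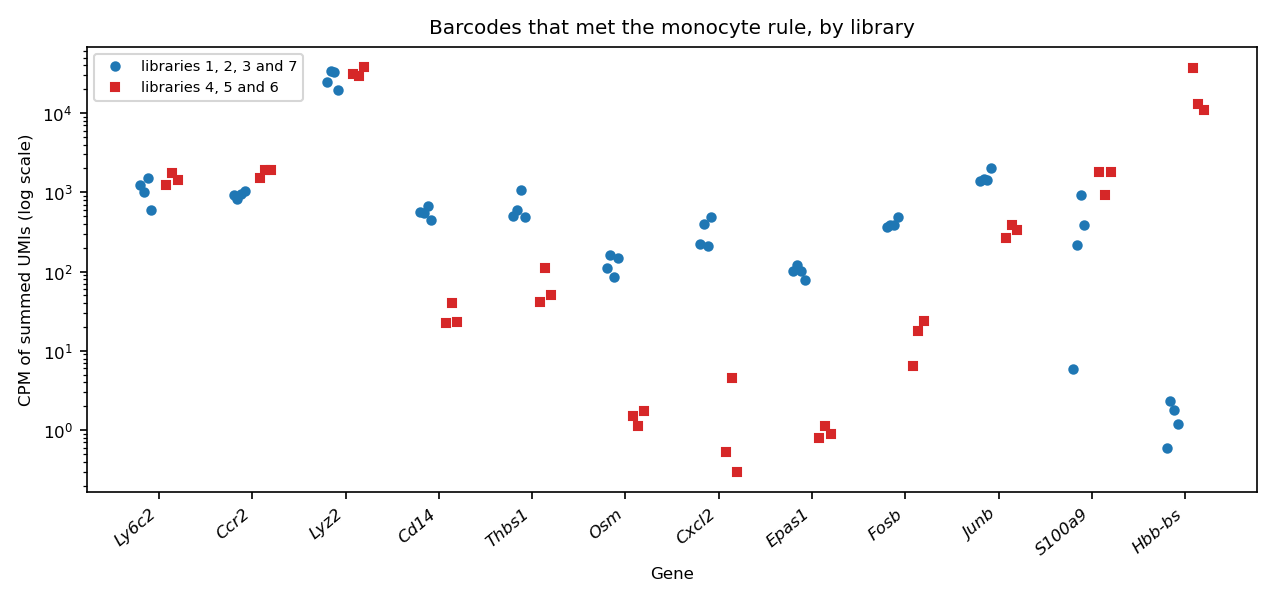
CPM on a log scale of 12 genes in cells that met the rule in each of the 7 libraries, with libraries 1, 2, 3 and 7 set apart from libraries 4, 5 and 6, and a value of 0 (Cxcl2 in library 6) drawn at the lower edge. Hbb-bs is high in libraries 4, 5 and 6, Fosb, Junb, Osm and Cxcl2 are high in the other 4, and Ly6c2 lies between 595 and 1728 CPM over all 7.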

How the data were processed

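The authors deposited 1 pooled matrix of UMI counts per gene and barcode (31053 genes), made per its header with Cell Ranger 3.1.0 and, per the labels, STAR on mm10. Reads were down-sampled by the authors to even out the libraries, which hides differences in sequencing depth. The annotation version was not given in the sources used here, and the labels and methods name different kit versions. Barcodes carry a library number from 1 to 7 and no sample name.

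Counts were summed over the cells of a class and library and scaled to CPM with no pseudocount, so a level is relative to all other RNA of those cells. A count of 0 in a ratio was set to 3 counts. Genes with at least 100 CPM in either class were compared. A gene was called when its ratio passed 2-fold in 1 direction in every library with at least 20 cells of both classes. Genes of either class rule were left out of the named genes, which were the 12 highest and 12 lowest by their smallest ratio over the libraries, the 6 furthest apart for each library and the 10 of largest ratio for the class II range. No gene was named by rule for the interferon range, since no library had 20 cells in its highest range. All genes of the 23 lists (318 genes, 1 without a row) could also be named. Members and lists were chosen with earlier results of these data known. No replicates exist, so no test was run.

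Doublets were not removed, and calls of Scrublet (scanpy 1.11.5, expected rate 5%) were tried as an alternative, with other limits on mitochondrial share, marker UMIs, C1q UMIs, depth and CPM. Python 3.11.15, numpy 2.4.6, scipy 1.17.1 and pandas 2.3.3 were used, and the scripts were tested on simulated data. Some genes that the rules name are not reported here. Promoter sequence came from RefSeq (GRCm38.p6). No protein table or genome sequence was used here.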

Additional observations from a re-analysis of the deposited data

Results flagged for a closer look

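In libraries 1, 2, 3 and 7, 27 barcodes met the whole rule except the mitochondrial limit of 10%, 13 of them in library 1, 8 in library 2, 5 in library 3 and 1 in library 7. They carry the monocyte markers but enter no comparison above, and their values were not read further.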

How the results depend on the processing

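The members numbered 877 with a mitochondrial limit of 5%, 961 with at least 8 marker UMIs, 1050 with fewer than 3 C1q UMIs, 1003 with UMIs and genes within 2 SD of the mean, 1012 without Scrublet calls and 930 without members carrying other markers. Under these alternatives every count of genes past 2-fold stayed within 1.5 times its value, and no ratio of a named gene that was recomputed turned its direction. With a minimum of 20 CPM in place of 100, the genes higher and lower numbered 110 and 130 against nonclassical monocytes, 197 and 166 against C1q macrophages and 305 and 211 against cDC2, 358 stood apart by library (63 at 100 CPM) and 820 passed 2-fold over the class II ranges (69 at 100 CPM), since more genes of few UMIs were read. As a mean over cells, 52 genes were higher against nonclassical monocytes. Thinned to 1000 UMIs, 252 genes stood apart by library, 237 passed 2-fold over the class II ranges, and the highest ranges held 76 cells for class II and 8 for interferon. Leaving out each library in turn gave 714 to 1006 members, 32 to 46 genes higher against nonclassical monocytes (46 without library 7), 90 to 126 genes standing apart (126 without library 2, 114 without library 1), 68 to 102 genes over the class II ranges, 92 to 132 cells in the highest class II range (92 without library 3, 93 without library 2) and 8 to 22 in the highest interferon range (8 without library 2, 11 without library 3), with the thinning drawn anew each time. Library 7, with 62 members, was the shallowest sum, so its levels carry the widest relative counting error. No paired analysis was possible because the libraries carry no sample label and no test was run.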
